A study of Mus musculus with 15 samples.

Results

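The comparison described here is that of Tg2576 and wild-type (WT) mice when both genotypes had received docosahexaenoic acid (DHA), across all genes measured in the hippocampus. The sample labels place 7 of the 15 mice of the series in it, 3 Tg2576 DHA mice (Tg2576 +/+ in the labels) and 4 WT DHA mice (Tg2576 -/-). All 7 were females of 18 to 20 months that were given 450 mg/kg of DHA in sesame oil daily for 5 weeks. The other 8 mice, 4 Tg2576 and 4 WT, received the oil alone, and none of them enters the difference between the DHA groups, although they shared in the estimate of the spread. Tg2576 mice carry a human APP transgene with the Swedish mutation under the prion promoter, which is active mainly in neurons. The WT mice were transgene-negative littermates. Each mouse gave 1 library of bulk hippocampal RNA.

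In this model, amyloid-β cut from the human precursor builds up with age and forms plaques. Microglia, the phagocytes of the brain, gather at plaques, sense lipids and debris through receptors such as TREM2, and raise a set of genes for lysosomal proteases, phagocytosis and lipid handling. Astrocytes near plaques become reactive and raise intermediate filament and complement genes. DHA is the main omega-3 fatty acid of neuronal membranes, and fatty acid and sterol synthesis genes respond to the supply of membrane lipids. Both genotypes received it here, so the contrast asks which genotype differences were present under DHA and gives no effect of DHA itself.

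The libraries of the 7 mice held 19265589 to 33662464 counts, and 19536 genes passed the filter on low counts. Levels are CPM, the counts of a gene scaled to a common library size after TMM factors, and differences are log2 fold changes of Tg2576 over WT mice from the quasi-likelihood test of edgeR. A gene counts as called where its p before adjustment was below 0.01, and the p-values printed beside single genes are adjusted over all genes by the Benjamini-Hochberg method. The mitochondrial share of the counts was 2.72% to 2.81% in the Tg2576 DHA and 1.94% to 2.51% in the WT DHA mice, so the groups did not overlap. On the first principal component of the 7 mice (30.6% of the variance), WT DHA replicate 3 lay among the Tg2576 mice. Markers of the labelled tissue were present in each library, with a summed level of 1179 to 1270 CPM in the Tg2576 DHA and 1205 to 1416 CPM in the WT DHA mice for 7 CA1 pyramidal cell genes. The summed level of 9 dentate granule cell genes was 384 to 414 CPM and 398 to 577 CPM. Markers of the choroid plexus, an epithelium outside the hippocampus, were uneven and are described with the results they touch. In bulk tissue, fewer cells of a type and less RNA per cell cannot be told apart.

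App, the gene of the amyloid precursor, was the gene that checks the labels. Its levels were 2286, 2553 and 2787 CPM in the 3 Tg2576 DHA mice and 1572, 1652, 1724 and 1615 CPM in the 4 WT DHA mice. Every Tg2576 mouse lay above every WT mouse, and the means stood 1.55-fold apart on the scale of the fit (log2 fold change 0.63, standard error 0.091, adjusted p = 0.0416). App (ENSMUSG00000022892.11, chromosome 16, 84949685 to 85173766 of GRCm38, a protein-coding gene) was the sole gene with an adjusted p under 0.05. The exact two-sided permutation test over the 35 ways of dividing the 7 mice gave p = 0.0571, the smallest it can give. The counts of App may hold reads of the mouse gene and of the transgene alike. Of 18 genes for the precursor family, the secretases and amyloid-degrading proteases, App was the sole gene called. With 1 mouse of the 15 left out, App had an adjusted p under 0.05 only without Tg2576 DHA replicate 1 and without Tg2576 vehicle replicates 1 and 4. The adjusted p reached 0.764 without Tg2576 DHA replicate 3, and the unadjusted p was at most 3.81e-05 in these 15 fits.

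Of the 19536 genes, 342 (1.75%) had a p under 0.01, 208 of them (1.06%) higher and 134 (0.686%) lower in Tg2576 mice. A share of 0.01 of the genes tested is 195 genes. The shares of 1.06% higher and 0.686% lower are those to set beside the calls of each gene list below. Of all genes tested, 9640 had a positive and 9896 a negative fold change. An unadjusted p under 0.05 was reached by 1341 genes, and an adjusted p under 0.1 by 3 genes, App and Man2b1 among them. The genes called higher moved further than the genes called lower, with a median log2 fold change of 0.73 (0.26 to 3.85) against -0.33 (-3.48 to -0.22), and 65 of the former but 12 of the latter changed more than 2-fold. Their median level, not set per length, was 8.49 CPM against 69.4 CPM. Protein-coding genes made up 190 of the 208 and 125 of the 134. The levels of the 2 groups did not overlap for 172 of the genes called higher and 129 of the genes called lower, where 3.91% and 4.66% of all genes tested were without overlap in these directions. With library sizes alone in place of TMM factors, 271 genes were higher and 72 lower.

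**Figure D1:**
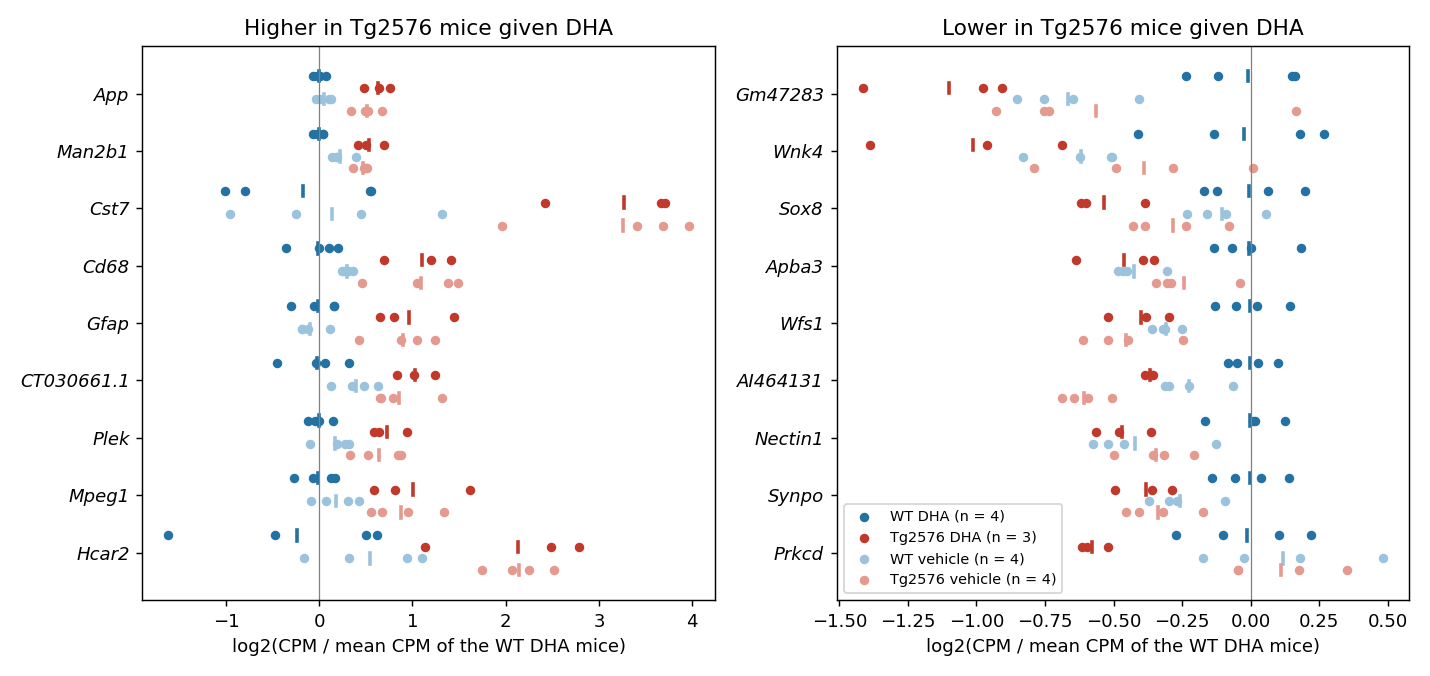
Levels of 9 of the 10 genes called higher (left) and 9 of the 10 called lower (right) with the lowest p among protein-coding genes whose DHA groups did not overlap, as log2 of the CPM over the mean CPM of the WT DHA mice. Points are mice and short bars are the means of the log2 values of each group. The red Tg2576 DHA points lie to the right of all dark blue WT DHA points on the left panel and to their left on the right panel, as the choice of genes requires, and the pale points show where the vehicle mice lay.

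Genes of lysosomal proteins were among the genes called higher with the lowest p. Man2b1 encodes the lysosomal α-mannosidase. Its levels were 66.2, 62.2 and 75.7 CPM in the Tg2576 DHA and 44.8, 46, 48.2 and 48.1 CPM in the WT DHA mice (log2 fold change 0.54, standard error 0.0889, adjusted p = 0.0739), and the 4 WT mice lay within a narrow band below the Tg2576 mice. Cd68, a glycoprotein of phagocyte lysosomes, was at 18, 12.8 and 21 CPM against 6.16, 8.44, 7.86 and 9.02 CPM (log2 fold change 1.13, standard error 0.21, adjusted p = 0.179). Again the groups were apart, with Tg2576 DHA replicate 2 the closest to the WT mice. The p of Man2b1 and Cd68 stayed under 0.01 in all 15 fits without 1 mouse and under all 13 other alternatives.

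Other genes among the 10 with the lowest p are known from myeloid cells. Cst7, the gene of cystatin F, an inhibitor of lysosomal cysteine proteases that microglia at plaques express, was at 11.6, 4.91 and 12 CPM in the Tg2576 DHA and 0.528, 0.455, 1.34 and 1.34 CPM in the WT DHA mice (log2 fold change 3.40, standard error 0.569, adjusted p = 0.131). This was the largest fold change among these 10 genes. Hcar2, a receptor for β-hydroxybutyrate and niacin on microglia, was at 1.51, 0.591 and 1.86 CPM against 0.088, 0.195, 0.414 and 0.384 CPM (log2 fold change 2.30, standard error 0.5, adjusted p = 0.369). It is a low gene, and Tg2576 DHA replicate 2 lay near the WT mice. Mpeg1, the pore-forming perforin-2 of macrophages, was at 39.1, 33.4 and 68.4 against 18.5, 25, 24.4 and 21.3 CPM (log2 fold change 1.07, standard error 0.225, adjusted p = 0.369). Plek, a protein kinase C substrate of blood and myeloid cells, was at 16.2, 15.6 and 19.9 against 10.1, 11.5, 9.52 and 10.4 CPM (log2 fold change 0.73, standard error 0.151, adjusted p = 0.349). For both genes all 3 Tg2576 mice lay above the 4 WT mice.

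Among 28 genes of plaque-associated microglia, 9 were called higher and 0 lower, beside 1.06% and 0.686% of all genes tested, and 26 had a positive fold change. The median log2 fold change of the list was 0.72, beside -0.0035 over all genes tested. Cst7 and Cd68 were followed by Lyz2 and Lilrb4a. Lyz2, lysozyme of myeloid cells, was at 33.3, 26.5 and 28.3 CPM in the Tg2576 DHA and 6.78, 12.3, 16.6 and 16.8 CPM in the WT DHA mice (log2 fold change 1.16, standard error 0.264, adjusted p = 0.384). Lilrb4a, an inhibitory receptor of myeloid cells, was at 1.37 to 2.01 CPM against 0.0959 to 0.672 CPM (log2 fold change 1.80, standard error 0.432, adjusted p = 0.39). In neither gene did the groups overlap. Trem2, the lipid-sensing receptor itself, was at 37.6, 13.6 and 31.6 CPM against 9.6, 12.4, 12.4 and 21.4 CPM. Tg2576 DHA replicate 2 lay within the WT range, and Trem2 was not called (log2 fold change 0.99, adjusted p = 0.719), although it was without Tg2576 vehicle replicate 1 (unadjusted, 0.00666). The summed level of the list, which follows its most abundant genes, was 3458 to 4323 CPM in the Tg2576 and 3107 to 4060 CPM in the WT mice and overlapped. For 12 of the 28 genes the Tg2576 DHA mice lay above the WT DHA mice without overlap, beside 3.91% of all genes tested. Between 5 genes (without Tg2576 DHA replicate 3) and 12 genes (without replicate 2 of the same group) were called with 1 mouse left out.

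Some genes that mark microglia in the resting brain were also called higher. Of 14 homeostatic microglial genes, 6 were called higher, 0 lower, and 13 had a positive fold change, with a median of 0.44. Csf1r, the receptor that microglia need to survive, was at 136, 114 and 154 CPM in the Tg2576 DHA against 92.3, 107, 104 and 99.9 CPM in the WT DHA mice (log2 fold change 0.42, standard error 0.108, adjusted p = 0.478). The groups lay close to each other but did not overlap. Gpr34, a lysophosphatidylserine receptor, was at 7.63 to 11.7 CPM against 3.26 to 5.33 CPM (log2 fold change 1.16, adjusted p = 0.536). Tgfbr1, whose ligand maintains the microglial state, was at 20.8 to 29.97 against 16.9 to 20.9 CPM (log2 fold change 0.48, adjusted p = 0.536), with an overlap at 1 mouse of each group. The summed level of the 14 genes was 444 to 571 CPM in the Tg2576 and 350 to 402 CPM in the WT DHA mice, without overlap. Without Tg2576 DHA replicate 3, 1 gene of the list was still called, and the median was 0.33. With 1 mouse left out, the p passed 0.01 for Csf1r (1 of 15, up to 0.0142 without Tg2576 DHA replicate 3), Gpr34 (2 of 15, up to 0.0177 without Tg2576 DHA replicate 3) and Tgfbr1 (3 of 15, up to 0.0318 without Tg2576 DHA replicate 3), where the first number gives the fits that lost the call.

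Some of the receptors on the microglial surface were called higher, beside 1.06% of all genes tested. All 13 microglial G protein-coupled receptors tested had a positive fold change (median 0.94), but Hcar2 was the sole gene called. When at least 10 counts in every mouse were required, the median of this list was 0.328, with 0 calls. Gpr84, a receptor for medium-chain fatty acids, was at 0.503 to 1.51 CPM in the Tg2576 and 0.13 to 0.517 CPM in the WT DHA mice (log2 fold change 1.47, adjusted p = 0.589). Ccrl2 was at 0.768 to 1.15 against 0.288 to 0.616 CPM (log2 fold change 0.99, adjusted p = 0.606). The p of Gpr84 was under 0.01 without Tg2576 DHA replicate 3 (0.0047), WT DHA replicate 3 (0.00936) or Tg2576 vehicle replicates 2 (0.00937) and 3 (0.00909), and that of Ccrl2 without WT DHA replicate 1 (0.00862). Among 17 phagocytic and Fc receptors, 5 were called higher, 0 lower, and 16 had a positive fold change (median 0.78). Cd33, a sialic acid-binding inhibitory receptor, was at 7.63, 12.1 and 8.79 CPM against 5.37, 6.56, 5.59 and 3.84 CPM (log2 fold change 0.83, standard error 0.197, adjusted p = 0.39). Every Tg2576 mouse exceeded the WT mice, as it did for Cd14, a co-receptor for bacterial lipopolysaccharide (4.79 to 6.05 against 1.41 to 3.72 CPM, adjusted p = 0.499), and for Havcr2, an immune checkpoint receptor (6.09 to 7.82 against 3.61 to 4.32 CPM, log2 fold change 0.75, adjusted p = 0.529). For Tlr2, a receptor for microbial lipoproteins, the groups overlapped (2.39 to 5.27 against 0.792 to 2.69 CPM, log2 fold change 1.11, adjusted p = 0.542). The calls of Havcr2 (1 of 15, up to 0.0119 without Tg2576 DHA replicate 3) and Tlr2 (3 of 15, up to 0.0423 without Tg2576 DHA replicate 3) were lost in some fits without 1 mouse. Without Tg2576 DHA replicate 3, 2 of the 17 receptors were called.

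PU.1, the product of Spi1, is the transcription factor that specifies macrophages and microglia. Spi1 was at 5.08 to 8.71 CPM in the Tg2576 DHA and 3.25 to 5.76 CPM in the WT DHA mice (log2 fold change 0.66, adjusted p = 0.56), with an overlap, and 7 of the 15 fits without 1 mouse lost its call (up to 0.0807 without Tg2576 DHA replicate 3). The letters GAGGAAGT of a PU.1 site were searched on both strands in RefSeq promoters of GRCm38.p6, which run from 250 bases before to 50 bases after the start of a gene. They were present in 13 of the 147 genes called higher that have a promoter in the table (8.84%), in 1 of 96 genes called lower (1.04%) and in 441 of 13008 genes tested (3.39%). A CLEAR element of TFEB, which governs lysosomal genes, was searched as TCACGTGA and was in 4.08%, 2.08% and 1.89%. The interferon response letters TTCNNTTTC were in 8.84%, 6.25% and 8.69%, those of STAT factors (TTCNNNGAA) in 8.16%, 7.29% and 8.29%, and the cAMP response element TGACGTCA in 2.72%, 2.08% and 3.24%. The interferon and STAT letters can overlap each other. A match is a description of the letters and not a bound site. The promoters of Ctss (a lysosomal cathepsin, chr3:95526536-95526835, plus strand), Havcr2 (chr11:46454681-46454980, plus strand) and Slamf9 (a surface receptor of the SLAM family, chr1:172475110-172475409, plus strand) are shown because each holds the PU.1 letters, in capitals, within a few bases of the start site, which follows base 250. Slamf9 was chosen for this position after its values were seen. These 3 are not the only such promoters. The letters also lie at the start site of Zfp54, a zinc-finger gene called higher that is described below, and its promoter is not shown.
Ctss: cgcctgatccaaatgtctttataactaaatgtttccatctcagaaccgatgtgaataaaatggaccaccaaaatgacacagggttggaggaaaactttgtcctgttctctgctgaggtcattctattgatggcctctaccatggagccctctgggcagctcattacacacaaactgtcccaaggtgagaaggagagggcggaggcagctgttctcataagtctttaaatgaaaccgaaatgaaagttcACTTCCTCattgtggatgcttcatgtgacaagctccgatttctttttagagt
Havcr2: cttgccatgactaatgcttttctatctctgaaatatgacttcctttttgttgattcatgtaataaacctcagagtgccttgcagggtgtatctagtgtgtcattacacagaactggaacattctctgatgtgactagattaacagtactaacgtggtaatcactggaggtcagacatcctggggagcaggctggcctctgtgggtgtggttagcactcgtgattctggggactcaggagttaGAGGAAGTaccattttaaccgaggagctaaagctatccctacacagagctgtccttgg
Slamf9: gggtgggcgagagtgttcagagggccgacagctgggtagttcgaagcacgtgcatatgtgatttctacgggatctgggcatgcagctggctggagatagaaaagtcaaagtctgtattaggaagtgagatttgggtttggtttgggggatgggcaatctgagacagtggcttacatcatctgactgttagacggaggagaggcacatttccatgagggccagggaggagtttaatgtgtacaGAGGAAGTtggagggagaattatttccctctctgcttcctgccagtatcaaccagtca

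The levels of Ctss were 94.8, 70.5 and 129 CPM in the Tg2576 DHA and 44.6, 55, 63.4 and 68.1 CPM in the WT DHA mice (log2 fold change 0.76, standard error 0.189, adjusted p = 0.45). The groups did not overlap, and Tg2576 DHA replicate 3 was the highest. Slamf9 was at 1.48 to 2.52 CPM against 0.792 to 1.14 CPM (log2 fold change 0.94, adjusted p = 0.56), and 5 of 15 fits without 1 mouse lost its call (up to 0.0546 without Tg2576 DHA replicate 1). Of 27 lysosomal genes, 4 were called higher (Man2b1, Ctss, Lamp2 and Laptm5) and 0 lower, and the median was 0.13. Lamp2, a membrane protein of lysosomes that serves autophagy, was at 57.6, 64.3 and 71.8 CPM against 40.5, 42.4, 48.8 and 32.8 CPM (log2 fold change 0.65, standard error 0.168, adjusted p = 0.499). Laptm5, a lysosomal membrane protein of blood and myeloid cells, was at 48.6 to 68.8 against 31.2 to 43.5 CPM (log2 fold change 0.55, adjusted p = 0.565). Without overlap in either gene, Laptm5 still lost its call in 10 of 15 fits without 1 mouse, up to 0.0782 without Tg2576 DHA replicate 3. Ctss lost it without that mouse (0.0119). Without Tg2576 DHA replicate 3, 2 of the lysosomal genes were called, and the 13 alternatives that kept every DHA mouse gave 3 to 9.

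Complement tags debris and synapses for removal. Of its 16 genes tested, 6 were called higher and 0 lower, beside 1.06% and 0.686% of all genes tested, with a median of 0.60. C3ar1, the receptor for C3a, was at 3.46, 4.37 and 4.96 CPM in the Tg2576 DHA against 0.88, 2.44, 2.07 and 2.69 CPM in the WT DHA mice (log2 fold change 1.07, standard error 0.298, adjusted p = 0.536). Serping1, the inhibitor of C1, was at 9.5 to 13.4 against 5.02 to 7.4 CPM (log2 fold change 0.73, adjusted p = 0.536). C1s1, a protease of the C1 complex, was at 1.37 to 1.95 against 0.585 to 0.879 CPM (log2 fold change 1.19, adjusted p = 0.536). In these genes the groups were apart, whereas for Itgb2, the β-chain of complement receptors on leukocytes, they overlapped (7.62 to 12.6 against 5.28 to 8.17 CPM, log2 fold change 0.57, adjusted p = 0.56). The calls were lost in fits without 1 mouse for C3ar1 (1 of 15, up to 0.0117 without Tg2576 DHA replicate 3), Serping1 (2 of 15, up to 0.026 without Tg2576 DHA replicate 2), C1s1 (1 of 15, up to 0.0167 without Tg2576 DHA replicate 2) and Itgb2 (8 of 15, up to 0.0615 without Tg2576 DHA replicate 1). The list held 2 called genes when Tg2576 DHA replicate 3 or WT DHA replicate 1 was left out.

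Cytokine, interferon and antigen-presentation genes gave fewer calls. Of 26 cytokine and receptor genes tested, 3 were called higher and 0 lower (median 0.38). They were Csf2rb, the shared chain of the GM-CSF and IL-3 receptors (3.1 to 4.61 CPM in the Tg2576 against 1.85 to 2.5 CPM in the WT DHA mice, log2 fold change 0.79, adjusted p = 0.536), Tgfbr2 (24.4 to 25.2 against 15.8 to 20.7 CPM, log2 fold change 0.45, adjusted p = 0.565) and Il4ra (6.41 to 10.6 against 3.36 to 6.67 CPM, log2 fold change 0.67, adjusted p = 0.565). None of the 3 kept its call without Tg2576 DHA replicate 3, and Tgfbr2 and Il4ra lost it in 9 and 10 of the 15 fits. The inflammatory cytokine Il1b was at 0.504, 0.709 and 0.542 CPM against 0.264, 0.13, 0.31 and 0.192 CPM, without overlap. It was not called (log2 fold change 1.40, adjusted p = 0.586), with an unadjusted p of 0.0113 in edgeR. The unadjusted p was 0.00881 without Tg2576 vehicle replicate 4 and 0.00874 without WT vehicle replicate 3. Socs3, a feedback inhibitor of STAT3 signalling, was at 2.92 to 6 against 1.92 to 3.52 CPM (log2 fold change 0.72, adjusted p = 0.586), and it was called without Tg2576 DHA replicate 1 (0.00124) or WT DHA replicate 3 (0.00576). Tnf had 0 to 6 counts per mouse and did not pass the filter, as did Il6, Ccl2 and Il1rn. Of 22 interferon-stimulated genes, Trim30a (2.27 to 2.98 against 1.19 to 1.75 CPM, log2 fold change 0.96, adjusted p = 0.548) and Bst2, which tethers virions (8.85 to 11.7 against 2.95 to 8.17 CPM, log2 fold change 0.94, adjusted p = 0.56), were called higher. Both lost the call in 5 of 15 fits, without Tg2576 DHA replicate 2 or 3 and without WT DHA replicates 1 and 4 among them. Of 19 genes of antigen presentation, 0 were called by edgeR at p under 0.01 and 1 had a p under 0.05, namely B2m, the light chain of MHC class I (78.3 to 108 against 53.2 to 86.6 CPM, log2 fold change 0.41, adjusted p = 0.714). No other tool or setting with all DHA mice called any of the 19, and 3 were called without WT DHA replicate 2, B2m (0.00945) among them.

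Astrocytes showed the same direction in their reactive genes and no call in their resting genes. Of 18 reactive astrocyte genes, 5 were called higher, 0 lower, and 17 had a positive fold change, with a median of 0.69. Gfap, the intermediate filament of astrocytes, was at 969.5, 1079 and 1686 CPM in the Tg2576 DHA and 499.9, 593, 693 and 689 CPM in the WT DHA mice (log2 fold change 1.01, standard error 0.192, adjusted p = 0.253). Aspg, an asparaginase induced in reactive astrocytes, was at 12.2, 21.1 and 15.9 against 6.74, 8.18, 10.1 and 10.4 CPM (log2 fold change 0.89, standard error 0.212, adjusted p = 0.39). Every Tg2576 mouse lay above every WT mouse for both. Vim, a second intermediate filament that reactive astrocytes share with vascular and immune cells, was at 84.6, 83 and 95.2 CPM against 25.3, 40.9, 61.2 and 67 CPM (log2 fold change 0.85, standard error 0.227, adjusted p = 0.536), with a spread in the WT mice that was wider than that in the Tg2576 mice. Tgm1, a transglutaminase, was at 0.972 to 1.35 against 0.155 to 0.714 CPM (log2 fold change 1.57, adjusted p = 0.536). Osmr, the oncostatin M receptor, was at 6.33 to 17.9 against 4.14 to 7.73 CPM (log2 fold change 1.02, adjusted p = 0.536), its groups overlapped, and its call was lost without Tg2576 DHA replicates 2 or 3 or WT DHA replicate 1 (up to 0.0375). Without Tg2576 DHA replicate 3, 3 of the genes were called, and Tgm1 had a p of 0.0130. Of 12 resting astrocyte genes, 0 were called by edgeR and 1 had a p under 0.05. The median of these genes was 0.020, and no other tool or setting called any. The summed level of the reactive list was 1254 to 2064 CPM in the Tg2576 and 686 to 985 CPM in the WT mice, without overlap.

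**Figure D2:**
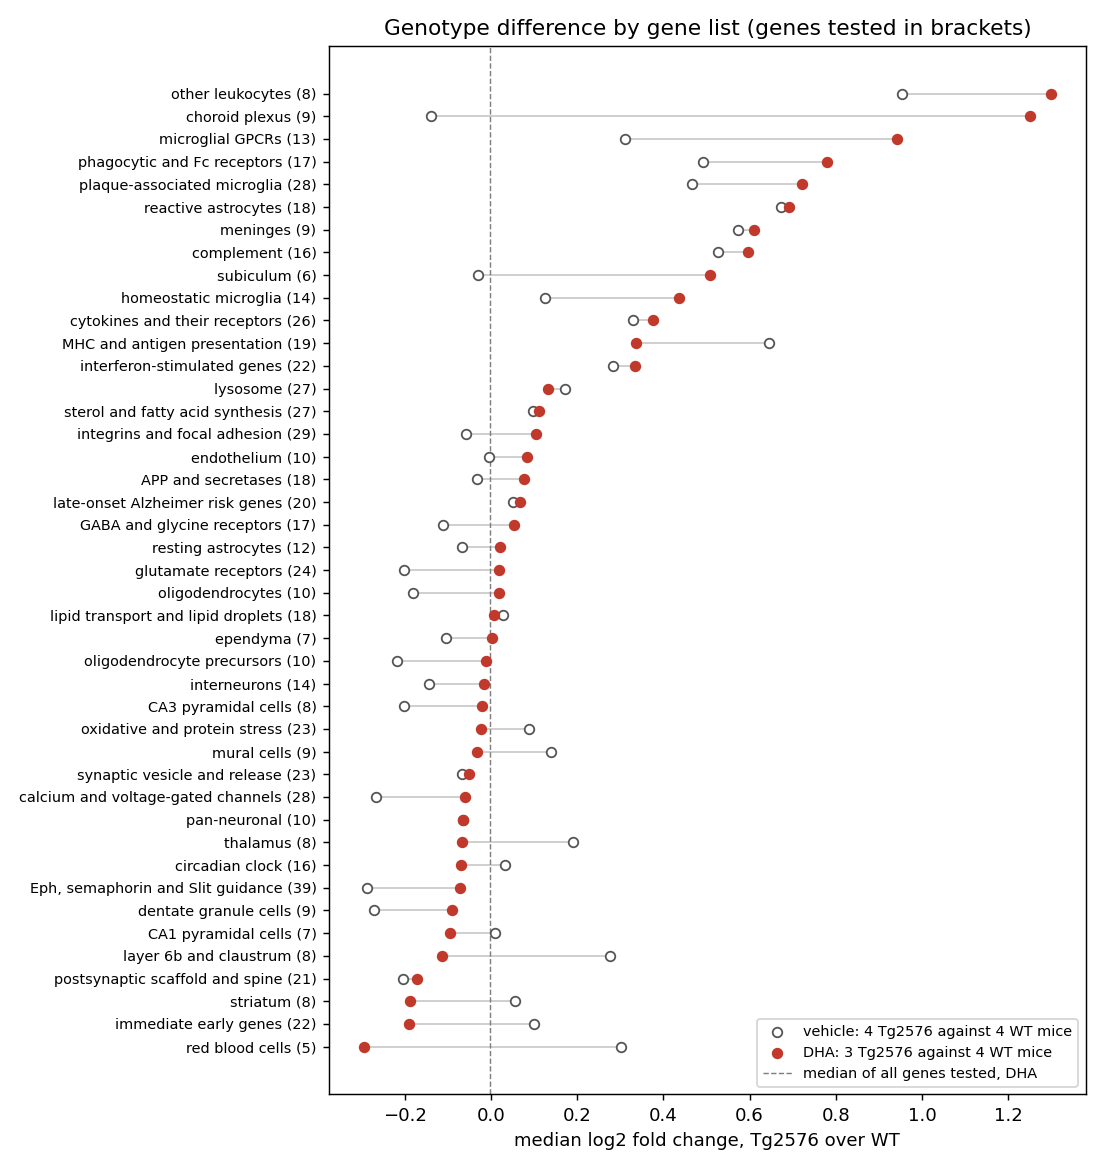
Median log2 fold change of Tg2576 over WT mice for each of 43 gene lists, with the number of genes tested in brackets. Filled points are the mice given DHA and open points the vehicle mice, which share no animal, and the dashed line is the median of all genes tested under DHA. Microglial, complement and reactive astrocyte lists lie at 0.44 to 0.94 under DHA, and the synaptic and ion channel lists between -0.17 and 0.054. The value of 0.94, of the microglial G protein-coupled receptors, was 0.328 when at least 10 counts in every mouse were required.

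Lipid genes were examined because DHA is itself a lipid. Of 27 genes of sterol and fatty acid synthesis, 2 were called higher and 0 lower, with a median of 0.11. Insig1, which retains the sterol sensor in the endoplasmic reticulum, was at 68.7, 82.5 and 77.8 CPM in the Tg2576 DHA against 61.2, 66.5, 46.8 and 49.6 CPM in the WT DHA mice (log2 fold change 0.44, standard error 0.134, adjusted p = 0.542). Sqle, squalene epoxidase, was at 69.4, 79.6 and 76.5 against 55, 63, 57.5 and 60.2 CPM (log2 fold change 0.35, standard error 0.111, adjusted p = 0.554). The groups did not overlap in either gene. Fits without 1 mouse lost the calls of Insig1 (4 of 15, up to 0.0206 without Tg2576 DHA replicate 2) and Sqle (4 of 15, up to 0.0262 without Tg2576 DHA replicate 2). Neither synthesis gene was called without Tg2576 DHA replicate 2. Under vehicle, 2 of the 27 synthesis genes were called higher and 0 lower, with a median of 0.0965. Insig1 was 1 of these (log2 fold change 0.48), whereas Sqle differed by 0.22 and was not called. Of 18 genes of lipid transport and lipid droplets, 1 was called higher and 0 lower, 9 had a positive and 9 a negative fold change, and the median was 0.0061.

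Of 20 genes at late-onset Alzheimer risk loci, Cd33 and Spi1 were called higher and Bin1 lower, and the median was 0.068. Bin1, a membrane-bending protein of neurons and oligodendrocytes, was at 352, 281 and 305 CPM in the Tg2576 DHA and 369, 366, 402 and 394 CPM in the WT DHA mice (log2 fold change -0.29, standard error 0.0999, adjusted p = 0.565). The groups did not overlap, with 1 Tg2576 mouse close to the lowest WT mice. The call of Bin1 was lost in 13 of the 15 fits without 1 mouse (up to 0.0665 without Tg2576 DHA replicate 2).

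The genes lower in Tg2576 mice were of mixed kinds, and their changes were smaller. Wnk4, a kinase that regulates chloride cotransporters, was at 7.41, 6.15 and 4.57 CPM in the Tg2576 DHA and 14.4, 8.99, 10.9 and 13.5 CPM in the WT DHA mice (log2 fold change -0.98, standard error 0.213, adjusted p = 0.369). Sox8, a transcription factor of the glial lineage, was at 41.6, 35.4 and 35.8 against 48.2, 49.9, 56.7 and 62.3 CPM (log2 fold change -0.53, standard error 0.115, adjusted p = 0.369). The groups were apart in both genes. Apba3 belongs to a family of adaptors that bind the amyloid precursor. It was at 26.4, 21.7 and 25.7 CPM against 32.1, 30.8, 33.7 and 38.3 CPM (log2 fold change -0.46, standard error 0.109, adjusted p = 0.39). Gm47283 had the lowest p of the genes called lower (28 to 39.8 against 63.4 to 83.6 CPM, log2 fold change -1.08, adjusted p = 0.369). The annotation places it on chromosome Y although all mice were female, and reads it shares with a copy elsewhere cannot be told apart. AI464131, a predicted glycosidase, was at 33.7, 34.3 and 34.4 against 47.1, 42.5, 41.6 and 44.8 CPM (log2 fold change -0.37, standard error 0.0879, adjusted p = 0.39), which gave the tightest values of these genes in the Tg2576 mice.

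Another 4 of the genes called lower with the lowest p are known from neurons. Wfs1, wolframin of the endoplasmic reticulum, marks CA1 pyramidal cells and was at 181, 170.2 and 155 CPM in the Tg2576 DHA and 245, 203, 226 and 214 CPM in the WT DHA mice (log2 fold change -0.40, standard error 0.0949, adjusted p = 0.39). The vehicle mice of both genotypes were at 145 to 187 CPM (Tg2576) and 173 to 186 CPM (WT), below the 4 WT DHA mice. Nectin1, an adhesion protein of synaptic junctions, was at 39.5, 41.9 and 45.4 against 52.2, 58.8, 59.1 and 63.8 CPM (log2 fold change -0.47, standard error 0.113, adjusted p = 0.39). Synpo, synaptopodin of the spine apparatus, was at 193, 212 and 223 against 279, 262, 247 and 299.8 CPM (log2 fold change -0.38, standard error 0.0964, adjusted p = 0.474). For these genes too, each WT DHA mouse exceeded every Tg2576 DHA mouse. Prkcd, a protein kinase C that is abundant in the thalamus, was at 28.7, 29.1 and 30.6 CPM against 40.9, 36.4, 47.2 and 51.2 CPM (log2 fold change -0.58, standard error 0.151, adjusted p = 0.527). The 8 thalamic markers, Prkcd among them, had a median of -0.067, and 7 of the 8 were not called. With 1 mouse left out, the 9 genes called lower with the lowest p that are named here and just above kept a p under 0.01 in all 15 fits. With a replicate block in the 7 DHA mice, Apba3 (0.0101), AI464131 (0.0122) and Synpo (0.0187) lost the call.

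In 3 synaptic lists a single gene was called, in each case lower in Tg2576 mice, beside 0.686% of all genes tested. Of 24 glutamate receptor genes, Grm2, a presynaptic receptor that limits release, was called (74.3, 78.4 and 69.2 CPM against 98, 91.9, 89.1 and 101 CPM, log2 fold change -0.36, adjusted p = 0.565). Of 23 genes of synaptic vesicles, Slc17a7, the vesicular glutamate transporter VGLUT1, was called (1309, 1649 and 1657 against 2053, 1792, 1773 and 2052 CPM, log2 fold change -0.32, adjusted p = 0.56). Of 21 postsynaptic scaffold genes, Dlgap3, which links the scaffold to Shank proteins, was called (344, 341 and 341 against 438, 391, 408 and 454 CPM, log2 fold change -0.30, adjusted p = 0.543). The groups did not overlap in the 3 genes. Of all 19536 genes tested, 9896 had a negative fold change. Among the postsynaptic genes, 18 of 21 had one (median -0.17), among them Dlg4, the scaffold PSD-95 (765 to 835 against 881 to 1100 CPM, log2 fold change -0.27, adjusted p = 0.627). The unadjusted p of Dlg4 in edgeR was 0.00794 without WT DHA replicate 2. Of 17 GABA and glycine receptors and 28 calcium and voltage-gated channels, 0 were called by edgeR, with 1 and 0 genes at a p under 0.05 (medians 0.054 and -0.060). The 13 other alternatives called at most 1 gene in each of these lists, whereas they called 0 (with a replicate block) to 6 (with 1 surrogate variable) of the postsynaptic genes lower, and 4 with an offset for gene length. Fits without 1 mouse lost the calls of Grm2 (9 of 15, up to 0.0439 without Tg2576 DHA replicate 3), Slc17a7 (5 of 15, up to 0.0659 without Tg2576 DHA replicate 1) and Dlgap3 (5 of 15, up to 0.0151 without WT DHA replicate 4). Under vehicle, 2 glutamate receptor, 0 vesicle, 5 postsynaptic, 0 GABA and glycine receptor and 4 channel genes were called lower. The medians of these lists there were -0.203, -0.0665, -0.205, -0.111 and -0.268. A test of the difference between the 2 comparisons (the interaction in edgeR) had a p under 0.01 for 0, 1, 0, 0 and 1 genes of these lists.

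Immediate early genes, which neuronal activity induces within minutes, had a negative fold change in 21 of 22 cases, beside 9896 of all 19536 genes tested. The median of the 22 genes was -0.19, with 0 calls by edgeR. A p under 0.05 was reached by Dusp4, a MAP kinase phosphatase (15.5, 16.1 and 19 CPM against 27.6, 23.4, 19 and 21.7 CPM, log2 fold change -0.45, adjusted p = 0.586), and Junb, a subunit of AP-1 (95.6, 72.5 and 92.1 against 119.7, 92.2, 123 and 171 CPM, log2 fold change -0.55, adjusted p = 0.69). The 13 other alternatives called 0 to 3 of the 22 genes. Fits without 1 mouse called Dusp4 at a p of 0.00489 to 0.00984 (without Tg2576 DHA replicate 3, WT DHA replicate 3, Tg2576 vehicle replicate 2 or WT vehicle replicate 3) and Junb without WT DHA replicate 2 (0.00953). Their summed level was 1058 to 1245 CPM in the Tg2576 DHA and 1295 to 1587 CPM in the WT DHA mice. The vehicle mice spanned 971 to 1821 CPM (Tg2576) and 1087 to 1375 CPM (WT), so these groups overlapped. Nr4a2, a member of this list, was at 60.6 to 73.5 against 63.7 to 87.9 CPM and did not differ beyond the spread (log2 fold change -0.096, adjusted p = 0.941). Of 16 clock genes, Npas2, a partner of BMAL1, was called lower (33.5, 37.5 and 31.8 against 40.5, 48.6, 45.9 and 41 CPM, log2 fold change -0.36, adjusted p = 0.536), and its call was lost in 3 of 15 fits (up to 0.0215 without Tg2576 DHA replicate 3).

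Markers of cell types and regions were set beside these results. Of 10 pan-neuronal genes and 14 interneuron genes, 0 were called by edgeR, with 1 gene of each list at a p under 0.05 (medians -0.064 and -0.016), and the sum of the pan-neuronal genes was 6486 to 6782 CPM against 6566 to 7105 CPM. The gene of the nuclear marker NeuN, Rbfox3, was at 235 to 258 against 269 to 306 CPM (log2 fold change -0.22, adjusted p = 0.649). Of 9 dentate granule cell genes, Lct was called lower (39.3, 28.7 and 43.2 CPM against 92, 43.2, 65.7 and 91.7 CPM, log2 fold change -0.98, adjusted p = 0.56), with an upper Tg2576 value close to the lowest WT value, and 8 of 15 fits without 1 mouse lost the call (up to 0.0404 without Tg2576 DHA replicate 2). The 6 subiculum markers all had a positive fold change (median 0.51), and the medians of the striatal and the layer 6b and claustrum markers were -0.19 and -0.11, with 0 calls in each. Oligodendrocytes, their precursors, endothelium, mural cells and ependyma had medians between -0.032 and 0.082 and 0 calls. The direction of the small medians of precursors, mural cells, interneurons and CA3 cells flipped with library sizes alone. Meningeal genes had a median of 0.61 (0 calls), which was -0.084 without Tg2576 DHA replicate 2. Of 13 genes of other leukocytes 8 were tested, and S100a8, a calcium-binding protein of neutrophils, was the sole gene called, higher in Tg2576 mice (0.792, 1.71 and 0.232 against 0, 0.195, 0.31 and 0.192 CPM, log2 fold change 2.39, adjusted p = 0.548). Its p was 0.0746 without Tg2576 DHA replicate 2. All 8 leukocyte genes had a positive fold change, 4 had a p under 0.05, and the median was 1.30, above that of every microglial list, but 0.053 when at least 10 counts in every mouse were required. T cell markers Cd3d, Cd3e and Cd3g had 0 to 12 counts per mouse and were not tested. The summed level of the 8 leukocyte genes was 4.92 to 13 CPM against 2.64 to 5.64 CPM, beside 444 to 571 CPM for the homeostatic microglial genes of the Tg2576 mice, and its part in the myeloid results was not tested.

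The vehicle mice offered the same genotype difference in 8 other animals. Of the 208 genes called higher under DHA, 176 (84.6%) were also higher in Tg2576 mice under vehicle, and of the 134 called lower, 101 (75.4%) were also lower, where 9775 of all 19536 genes tested were higher there and 9761 lower. The medians of these genes were smaller there, at 0.27 for the genes called higher and -0.086 for the genes called lower. The genes were chosen by their p under DHA, which favours large fold changes in the DHA mice. The smaller medians therefore do not show a weaker genotype difference under vehicle. Among the genes called higher, 44 were also called under vehicle in that direction, beside 1.16% of all genes tested, and among the genes called lower 14, beside 1.93%. Across all genes, the log2 fold changes of the 2 comparisons were related with r = 0.118 (Pearson) and rho = 0.119 (Spearman), as a description, since genes are not independent replicates.

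**Figure D3:**
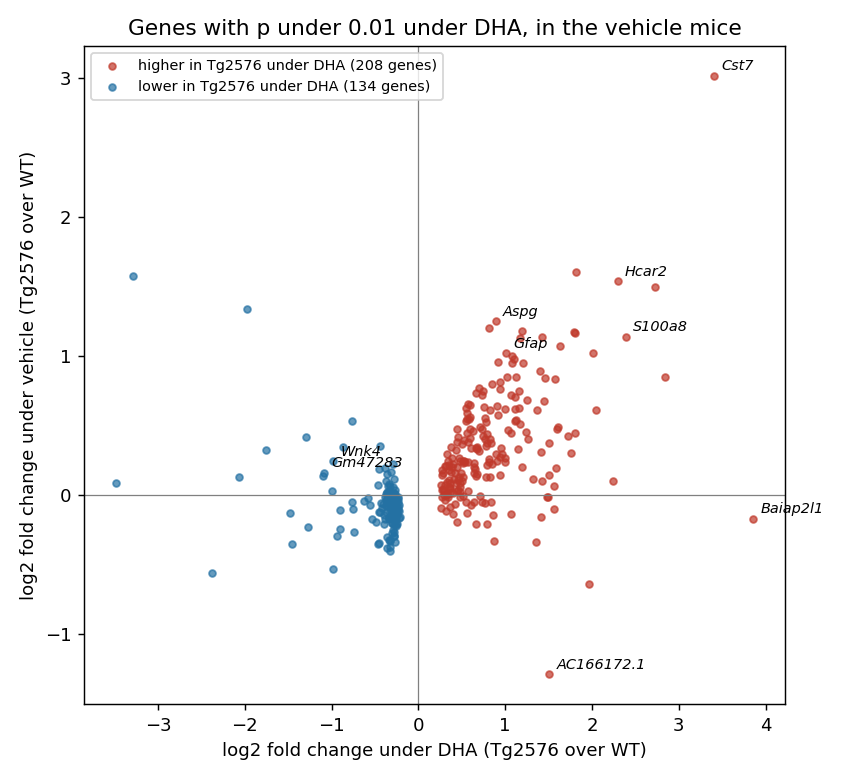
Log2 fold change of Tg2576 over WT mice under DHA (horizontal axis) and under vehicle (vertical axis) for the 342 genes with a p under 0.01 under DHA. Points are genes, and the empty band along the vertical axis comes from the threshold. Most red points lie above the horizontal line, Cst7 is far out in both, and Baiap2l1 is far out under DHA alone with a vehicle value of -0.17.

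Genes with the lowest p under vehicle among those called under DHA in the same direction were Aspg, Gfap, Cst7, App, Rab7b, AI464131, Cd68 and Klhl29. Aspg was at 18.5, 15.7, 17.9 and 24.6 CPM in the Tg2576 vehicle and 6.91, 6.29, 9.76 and 9.18 CPM in the WT vehicle mice (log2 fold change 1.25, adjusted p = 0.049). Gfap differed by 1.02 under vehicle and 1.01 under DHA, and Cst7 by 3.02 and 3.40. Rab7b, a GTPase of late endosomes in myeloid cells, was at 2.01 to 3.06 against 1.03 to 1.67 CPM under DHA (log2 fold change 0.81, adjusted p = 0.56) and at 2.11 to 2.97 against 0.774 to 1.25 CPM under vehicle. Klhl29, of the kelch-like family, was lower under DHA (57.8 to 64.3 against 68.5 to 82 CPM, log2 fold change -0.27, adjusted p = 0.56) and under vehicle (-0.33). The genotypes did not overlap in either set of mice for these 8 genes. Their choice by a low p in both comparisons favours this. Of all genes tested, 3.91% (higher) and 4.66% (lower) were without overlap under DHA. Without 1 mouse, the calls under DHA of Rab7b (3 of 15, up to 0.0601 without Tg2576 DHA replicate 3) and Klhl29 (4 of 15, up to 0.0325 without Tg2576 DHA replicate 1) were lost. The lists of microglia, their receptors, complement, cytokines, antigen presentation, interferon and reactive astrocytes had vehicle medians of 0.13 to 0.67. The plaque-associated list held 7 calls under vehicle and the reactive astrocyte list 7, all higher, where the homeostatic list held none. A test of the difference between the 2 comparisons (the interaction in edgeR) had a p under 0.01 for 0, 0 and 1 genes of these lists. The summed level of the homeostatic list was 339, 503, 540 and 438 CPM in the Tg2576 vehicle and 404 to 429 CPM in the WT vehicle mice. Tg2576 vehicle replicate 1 was the lowest of these, and the other Tg2576 vehicle mice lay above every WT vehicle mouse.

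Whether the genotype difference under DHA departed from that under vehicle was tested with the interaction, which had a p under 0.01 in 162 genes (0.829%) and an adjusted p of 0.05 in 0 genes, with 1001 genes at an unadjusted p under 0.05. The interaction shares the DHA mice with the comparison that chose the genes. Wnk4, Apba3, Traip, Gm47283, 1190002N15Rik and AC166172.1 were also picked as the called genes with the lowest interaction p, which was low by choice. Among the named genes called, it was under 0.01 for Wnk4, Apba3, Nectin1, Npas2, Traip, Gm47283, 1190002N15Rik, AC166172.1 and Baiap2l1. Wnk4 was at 9.82, 6.92, 8.51 and 12 CPM in the Tg2576 vehicle and 8.42, 6.72, 7.77 and 8.39 CPM in the WT vehicle mice, and Apba3 at 27.6, 26.6, 27.3 and 32.8 CPM against 24.4, 24.7, 27.3 and 24.1 CPM. The vehicle groups overlapped in both genes, their means differed in the direction opposite to that under DHA, and the WT DHA mice had the highest mean of the 4 groups. Traip, a ubiquitin ligase of DNA repair, was at 24.9 to 28.1 against 29.6 to 44.4 CPM under DHA (log2 fold change -0.45, adjusted p = 0.56) and 22.6 to 34.9 against 23.5 to 24.4 CPM under vehicle (interaction -0.80, adjusted p = 0.845). The gene 1190002N15Rik was at 21.1 to 26.8 against 13.6 to 19 CPM under DHA (log2 fold change 0.66, adjusted p = 0.378) and 16.4 to 25 against 21.9 to 24.9 CPM under vehicle. AC166172.1 was near the limit of counting (0.465 to 0.504 against 0.0959 to 0.207 CPM, log2 fold change 1.51, adjusted p = 0.56). Fits without 1 mouse lost the calls of Traip (5 of 15, up to 0.0273 without WT DHA replicate 1) and AC166172.1 (6 of 15, up to 0.022 without WT DHA replicate 4), and AC166172.1 lost it under 6 of 11 other alternatives too (up to 0.0633).

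Called genes were also placed on the genome of GRCm38, in windows of 5 Mb. The window with most called genes was chromosome 17 from 20000001 to 25000000, with 9 of 108 genes called (8.33%, beside 1.75% of all genes), all higher in Tg2576 mice. It was chosen after the counts of all windows were seen, so the count is a description. The 9 genes lie between 21423227 and 22867134, and 6 of them (Zfp54, Zfp51, Zfp942, Zfp943, Zfp946 and Zfp945) are zinc-finger genes of a cluster of related copies, of the kind that represses transposable elements. The other genes are CT030661.1, annotated as protein coding, and 2 processed pseudogenes. Levels of CT030661.1 were 7.34, 8.33 and 9.76 CPM in the Tg2576 DHA and 4.31, 5.13, 4.04 and 3.02 CPM in the WT DHA mice (log2 fold change 1.03, standard error 0.208, adjusted p = 0.305). Zfp942 was at 8.46, 11.9 and 13.8 CPM against 7.57, 7.63, 6.67 and 4.84 CPM (log2 fold change 0.77, standard error 0.195, adjusted p = 0.474) and Zfp946 at 9.43, 10.7 and 11.3 CPM against 7.84, 6.95, 6.36 and 5.18 CPM (log2 fold change 0.67, standard error 0.166, adjusted p = 0.45). The groups did not overlap in these 3 genes. Zfp54 had a larger fold change at a lower level (1.04 to 1.67 against 0.192 to 0.616 CPM, log2 fold change 1.42, adjusted p = 0.554), and Zfp51, Zfp943 and Zfp945 had log2 fold changes of 0.81, 0.66 and 0.43. With 1 mouse left out, all 4 genes and Zfp942 lost their call in some fits, from 1 of 15 for Zfp942 (0.0115 without Tg2576 DHA replicate 3) to 12 of 15 for Zfp51.

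The window holds 24 genes with a Zfp symbol. Besides the 6 called genes, by which the window was chosen, 14 of the other 18 had a positive fold change under DHA (median 0.35, 0 calls by edgeR) and 15 under vehicle (median 0.24), where 1 was called. Of 353 genes with a Zfp symbol elsewhere in the genome, 8 were called higher and 0 lower under DHA, and the median was 0.019. All 108 genes of the window had a median of -0.027. The genes are close copies of each other, so reads can be split among them and the level of any single gene is uncertain.

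**Figure D4:**
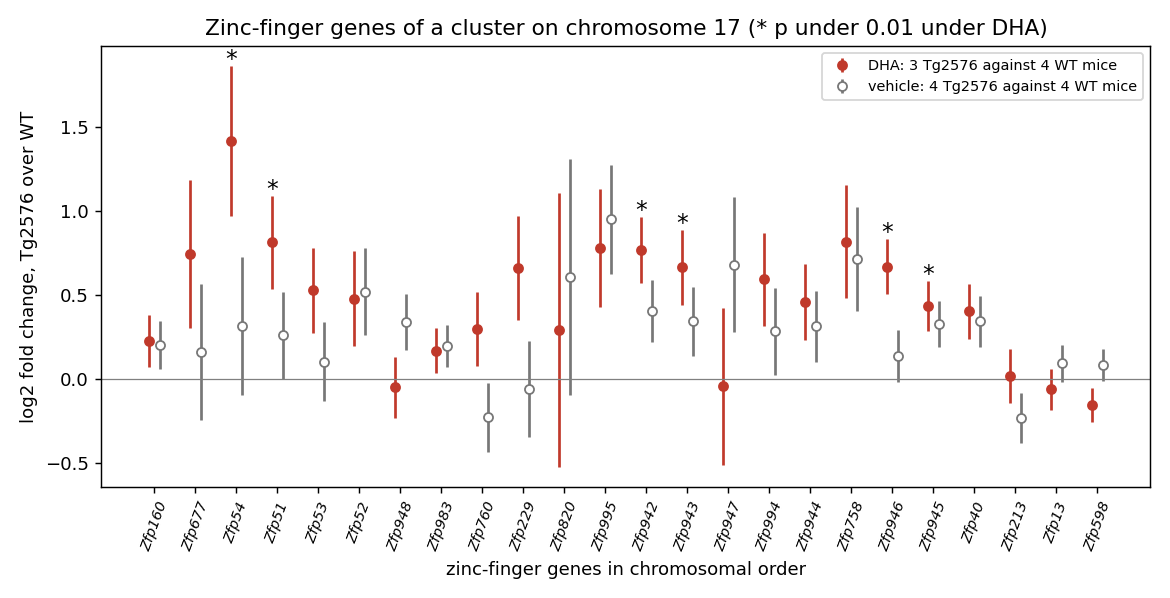
Log2 fold change of Tg2576 over WT mice for the 24 genes with a Zfp symbol in the window of chromosome 17, in chromosomal order. Filled points are the DHA mice, open points the vehicle mice, bars are standard errors of the fit and stars mark a p under 0.01 under DHA. The points lie above 0 for 20 genes under DHA, the 6 called genes among them, and for 21 genes under vehicle.

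Some mitochondrial transcripts were called higher as well, beside 1.06% of all genes tested. Of 18 genes of the mitochondrial genome tested, 16 had a positive fold change under DHA, with a median of 0.36 (0.62 under vehicle), and mt-Atp6, mt-Nd3, mt-Nd6 and the tRNA gene mt-Tn were called. mt-Nd3, a subunit of complex I, was at 3.78, 4.82 and 4.68 CPM against 2.55, 3.02, 1.24 and 1.34 CPM (log2 fold change 1.10, standard error 0.36, adjusted p = 0.56), and mt-Atp6, of the ATP synthase, at 4.46, 3.93 and 7.78 CPM against 3.48, 1.66, 2.28 and 2.83 CPM (log2 fold change 1.08, standard error 0.326, adjusted p = 0.542). mt-Nd6 differed by 0.57 and mt-Tn by 1.81 on the log2 scale. The mitochondrial share of the counts, given above, did not overlap between the groups, and its part in other results was not tested. Each of the 4 calls was lost in 1 to 4 of the 15 fits without 1 mouse, with the highest p for mt-Atp6 (0.0517 without Tg2576 DHA replicate 3).

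Choroid plexus RNA differed widely between libraries. Ttr, the transthyretin that this epithelium makes in bulk, was at 4964, 3145 and 2908 CPM in the Tg2576 DHA and 33.5, 304, 5603 and 119 CPM in the WT DHA mice. All 3 Tg2576 mice were high, whereas 3 of the 4 WT mice were low and WT DHA replicate 3 was the highest of the 7. Kl, the gene of Klotho, was at 97.4, 72.8 and 104 against 23.3, 29.6, 103 and 19.4 CPM, with WT DHA replicate 3 again among the Tg2576 mice. Neither gene was called (log2 fold change 1.28, adjusted p = 0.92 for Ttr and log2 fold change 1.06, adjusted p = 0.833 for Kl), and all 9 choroid plexus genes had a positive fold change with a median of 1.25. None of the 9 was called by edgeR, and none had a p under 0.05 or was called under any alternative. Without WT DHA replicate 3 the median was 3.15, the p of Ttr was 0.0229, and 343 genes were called, 238 of them higher. With limma-voom the log2 fold change of Ttr was 3.65. In WT DHA replicate 3 the summed level of the plaque-associated genes was 4060 CPM, above Tg2576 DHA replicates 2 and 3 (3458 and 3859 CPM), and that of the complement genes was 595 CPM, above Tg2576 DHA replicate 1 (551.5 CPM). WT DHA replicate 4, with Ttr at 119 CPM, also lay above Tg2576 DHA replicates 2 and 3 in the plaque-associated genes (3968 CPM). Its complement sum of 539 CPM lay below all Tg2576 DHA mice. Such sums follow the most abundant genes of a list. Cst7 and Cd68 of the plaque-associated list were at 1.345 and 7.86 CPM in WT DHA replicate 3 and 1.343 and 9.02 CPM in WT DHA replicate 4. Every Tg2576 DHA mouse was higher in both genes. Trem2 of WT DHA replicate 4 (21.4 CPM), by contrast, lay above Tg2576 DHA replicate 2 (13.6 CPM). The part of choroid plexus RNA in the sums was not tested.

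Baiap2l1, which encodes an adaptor of the actin cytoskeleton in epithelia, had the largest fold change of the genes called higher, and it is named for that after its values were seen. Its levels were 3.85, 37.5 and 26.1 CPM in the Tg2576 DHA and 0.572, 1.49, 3.15 and 1.05 CPM in the WT DHA mice (log2 fold change 3.85, standard error 0.801, adjusted p = 0.378). The vehicle mice were at 1.76, 3.1, 1.03 and 1.26 CPM (Tg2576) and 3.73, 0.919, 2.63 and 0.662 CPM (WT). Among the 13 mice other than Tg2576 DHA replicates 2 and 3, the 5 with the highest Ttr were the 5 with the highest Baiap2l1. Replicates 2 and 3 of the Tg2576 DHA mice stood far above these in Baiap2l1, with less Ttr than replicate 1, and the part of choroid plexus RNA in the difference was not tested. The difference passed the threshold in every fit without 1 mouse (highest p of 0.00189), and the interaction with treatment had a p under 0.01 but not an adjusted one (interaction 4.02, standard error 1.08, adjusted p = 0.845).

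**Figure D5:**
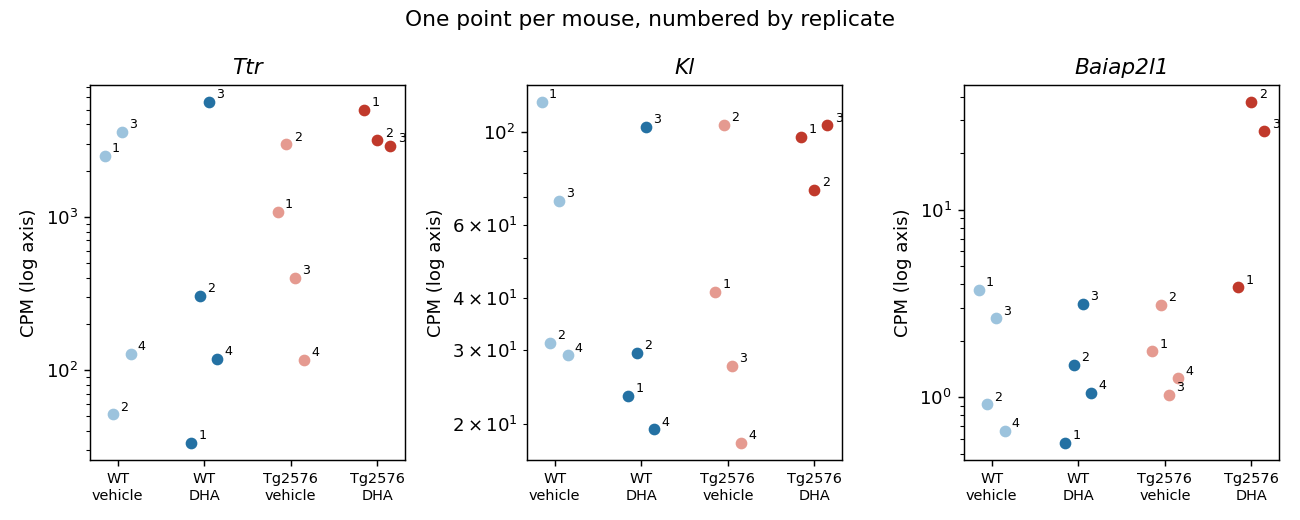
Levels of Ttr, Kl and Baiap2l1 in all 15 mice, in CPM on a log axis, 1 point per mouse with its replicate number. The 3 Tg2576 DHA mice, WT DHA replicate 3, Tg2576 vehicle replicate 2 and WT vehicle replicates 1 and 3 hold the 7 highest values of Ttr and of Kl, while Tg2576 DHA replicates 2 and 3 stand alone in Baiap2l1 at 37.5 and 26.1 CPM.

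Genes of cell adhesion were the last group examined. Of 29 integrin and focal adhesion genes, Itgb1, the β1 chain of most integrins, was called higher (48.2, 51 and 51.6 CPM against 37.9, 39.5, 43.8 and 35.8 CPM, log2 fold change 0.36, adjusted p = 0.546), and the median was 0.11. Of 39 genes of Eph, semaphorin and Slit guidance, Efna4, a ligand of Eph receptors, was called higher (1.58, 1.3 and 0.697 against 0.528, 0.455, 0.207 and 0.48 CPM, log2 fold change 1.496, adjusted p = 0.536), while 0 were lower. The groups did not overlap in either gene. Their calls were lost in some fits without 1 mouse for Itgb1 (4 of 15, up to 0.0166 without Tg2576 DHA replicate 3) and Efna4 (3 of 15, up to 0.023 without Tg2576 DHA replicate 1). Under vehicle, 1 of the 39 guidance genes was called higher and 10 lower. The interaction in edgeR had a p under 0.01 for 0 of them, so these counts of calls do not show a difference between DHA and vehicle. Of 23 genes of oxidative and protein stress, 0 were called by edgeR and 1 had a p under 0.05.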

How the data were processed

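Total RNA of the hippocampus of 15 mice was sequenced as paired reads. Per the submitters' processing notes and the file headers, the authors checked reads with FastQC 0.11.8, aligned them with STAR 2.6.1c to GRCm38 and deposited raw counts per gene (GENCODE M25) from featureCounts 1.6.0. No strand setting was given, and the sources name different library kits. Between 76.2% and 80.8% of the counts below 20 were even, as when both mates of a pair are counted, so intervals from counting were not used. Symbols came from GENCODE M21 (55141 of 55401 genes).

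Groups came from the sample labels. Genes were filtered with filterByExpr (minimum count 10), scaled with TMM factors and fitted over all 15 mice with the robust quasi-likelihood test of edgeR 4.0.16 (R 4.3.3), with 1 mean per group, and p-values were adjusted over all 19536 genes by the Benjamini-Hochberg method. Standard errors were the log2 fold change over the root of F. Nothing says that mice were processed independently, so p-values measure the spread between these mice. The script was tested on simulated counts. Alternatives were DESeq2 1.42.0, limma-voom 3.58.1, library sizes alone, RLE factors, other filters, the 7 DHA mice alone, no robust option, a replicate block, 1 surrogate variable (sva 3.50.0), an offset for gene length, halved counts and leaving out each mouse. When this leaves few mice, each group is assumed to vary like the others.

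Named genes were App and genes the study measured otherwise, the 10 higher and 10 lower protein-coding genes with the lowest p whose groups did not overlap, members of 43 gene lists, and genes shared with or differing from the vehicle comparison. Some genes that these rules name are not reported here. The genes, lists and rules were chosen with earlier results of these data known.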

Additional observations from a re-analysis of the deposited data

Results flagged for a closer look

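For 9 named genes called under DHA, the test of whether the genotype difference departed from that under vehicle (the interaction in edgeR) gave a p under 0.01, none of them with an adjusted p under 0.05. The log2 difference between the DHA and the vehicle contrast was -1.245 for Gm47283 (adjusted p = 0.845), -1.228 for Wnk4 (adjusted p = 0.845), -0.6416 for Apba3 (adjusted p = 0.845) and -0.5376 for Nectin1 (adjusted p = 0.845). It was -0.5127 for Npas2 (adjusted p = 0.845), 0.8713 for 1190002N15Rik (adjusted p = 0.845), 2.797 for AC166172.1 (adjusted p = 0.845), -0.7997 for Traip (adjusted p = 0.845) and 4.023 for Baiap2l1 (adjusted p = 0.845). These genes were selected on the DHA contrast, which the interaction contains. Wnk4, Apba3, Traip, Gm47283, 1190002N15Rik and AC166172.1 were also picked for their low interaction p. Over all genes tested, 162 (0.829%) had an interaction p under 0.01 in edgeR.

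In 3 named genes, 1 of the 4 WT DHA mice stood far from the others by Dixon's criterion. These were Serping1 in WT DHA replicate 1 (5.018 CPM, the lowest), Ttr in WT DHA replicate 3 (5603 CPM, the highest) and Kl in WT DHA replicate 3 (103.1 CPM, the highest). Chance alone flags about 1 in 20 groups.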

How the results depend on the processing

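The count of 342 genes with a p under 0.01 was 590 with 1 surrogate variable (45.4% higher), 485 with DESeq2 and 140 with a replicate block in the 7 DHA mice, and 190 (without WT DHA replicate 4) to 460 (without Tg2576 DHA replicate 1) with 1 mouse left out. The other alternatives gave 246 to 418. With library sizes alone, 79.0% of the called genes were higher, against 60.8%. The single gene with an adjusted p under 0.05 became 39 with DESeq2, 4 with 1 surrogate variable, 3 with library sizes alone or no filter, 0 in the 7 DHA mice alone, with or without the block, and 0 to 3 with 1 mouse left out. The cause of these shifts was not tested, and the fits without 1 mouse or of the 7 DHA mice alone also held fewer mice. The same-numbered mice did not deviate together (r = -0.0351, 0.213 and -0.0269), so the replicate numbers were not taken as pairs, and a replicate block over all mice called 246 genes. Of the 72 named genes called, none changed direction under any alternative. Nr4a2, not called, ranged from -0.1537 to 0.00937 (without WT DHA replicate 2, a change of sign). Halving the counts, chosen after seeing the data, gave 333 genes. With 3 and 4 mice and a coefficient of variation of 20.1%, small differences in low genes were not detectable.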
